A study of Mus musculus with 10 samples.

Results

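The 10 genes described here encode the transcription factor NRF2 (Nfe2l2), its inhibitor KEAP1 (Keap1) and 8 antioxidant enzymes that NRF2 is known to induce (Gclc, Gclm, Gsr, Txnrd1, Srxn1, Prdx1, Hmox1 and Nqo1). They were chosen by name, for their place in the pathway, from 53379 gene identifiers, and 9 of the 10 passed the filter on low counts. RNA was sequenced from dendritic cells sorted from spleens of individual 16-week-old C57BL/6 mice, in a series concerned with autophagy-deficient dendritic cells and atherosclerosis. The 4 groups were Atg16l1 -/- (KO) libraries labelled CD11b (n = 2), Atg16l1 +/+ (WT) libraries labelled CD11b (n = 3), Atg16l1 -/- libraries labelled CD8 (n = 2) and Atg16l1 +/+ libraries labelled CD8 (n = 3). All mice shared the strain and age, and all cells came from a sort for high MHC class II and high CD11c, with CD11b present and CD8 absent for one subset and the reverse for the other. How Atg16l1 was deleted, in which cells, which other alleles the mice carried and what they were fed are not given in the sources used here, nor is whether a CD11b and a CD8 library of the same number came from 1 mouse.

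NRF2 is a transcription factor that pairs with small MAF proteins on antioxidant response elements and induces genes for glutathione synthesis, thioredoxin recycling and haem breakdown. In unstressed cells KEAP1 holds NRF2 and presents it to a CUL3 ubiquitin ligase, so that NRF2 is degraded by the proteasome. The autophagy receptor p62, encoded by Sqstm1, binds KEAP1 and is itself removed by autophagy, and in mouse liver that lacks autophagy p62 accumulates, KEAP1 is sequestered and NRF2 target transcripts rise. The comparison of KO with WT dendritic cells asks whether the same targets moved when Atg16l1, a scaffold for attaching LC3 to autophagosome membranes, was lost. These data hold transcripts only, so p62, KEAP1 and NRF2 protein were not measured.

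The libraries held 9467704 to 13768884 gene counts each. Atg16l1 stood at 3.03 and 1.83 CPM in the CD11b KO libraries, against 24.1, 32.7 and 13.3 CPM in the CD11b WT libraries, and at 1.73 and 3.31 CPM in the CD8 KO libraries, against 19.5, 15.2 and 17.5 CPM in the CD8 WT libraries (CPM: counts scaled to a common library size). The targeted gene thus matched the genotype label in 10 of 10 libraries. The subset labels ran against the subset markers in 10 of 10 libraries. The CD8 alpha chain gene Cd8a measured 448 to 578 CPM with the CD11b label, against 0.905 to 5.87 CPM with the CD8 label. The CD11b gene Itgam measured 1.58 to 2.73 CPM with the CD11b label, against 76.1 to 104 CPM with the CD8 label. The summed level of 10 markers of type 1 conventional dendritic cells was 9805 to 10638 CPM at the label CD11b and 2641 to 3024 CPM at the label CD8, and that of 10 markers of type 2 was 124 to 148 CPM and 1923 to 2142 CPM. Of single libraries, CD11b WT 1 had the most genes with a count (20918, against 16652 to 19420 in the others) and CD8 KO 2 the highest level of B cell markers. Labels are kept as given, so "CD11b" and "CD8" name libraries and not the cells in them.

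Short stretches of the genes' own promoters are shown because NRF2 acts through a sequence element there. RefSeq promoter windows, 250 bases before to 50 bases after a start site on GRCm38.p6, were found for 7 of the 10 genes (9 windows), and Hmox1, Gclc and Gsr had none in the table used. The core of the antioxidant response element, TGACNNNGC, was searched on both strands and occurred in 5 of those 9 windows, 1 in each of 5 genes, against 12.4% of all 32851 windows of this length. The stretches below hold the core in capitals with 10 bases on each side, 5′ to 3′ on the strand that carries it.
Nfe2l2: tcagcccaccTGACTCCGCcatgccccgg
Gclm: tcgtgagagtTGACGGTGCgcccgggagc
Txnrd1: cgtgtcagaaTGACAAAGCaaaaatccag
Srxn1: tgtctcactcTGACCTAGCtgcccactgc
Prdx1: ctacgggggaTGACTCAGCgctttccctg

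The stretch of Nfe2l2 is at chr2:75704885-75704913, 240 bases before the start and on the gene's own strand (minus). The other stretches read on the minus strand, opposite to their genes: Gclm at chr3:122245413-122245441 (134 bases before the start), Txnrd1 at chr10:82859104-82859132 (92 bases before the start of 1 of its windows), Srxn1 at chr2:152105542-152105570 (28 bases after the start) and Prdx1 at chr4:116685456-116685484 (133 bases before the start). In Prdx1 the core overlaps an AP-1 site, TGAGTCA on the other strand, a motif found in 5.20% of all windows. Keap1 and Nqo1 had no TGACNNNGC in their windows. Distances are those of the core's first base along the gene, and a match is a description of the letters, not a binding site.

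Per kilobase of exon, Nfe2l2 had the highest level of the 10 genes, with a mean of 76.8 CPM per kb over the 10 libraries (range 65.4 to 92.0), above the range of every other gene in the list. Hmox1 (mean 38.7, range 21.3 to 49.5 CPM per kb), Txnrd1 (28.7, 18.2 to 41.8), Gclc (23.7, 6.23 to 48.5) and Gsr (20.2, 17.9 to 23.5) followed with ranges that overlapped their neighbours in the order. Prdx1 (12.2, 8.06 to 19.7 CPM per kb) and Srxn1 (10.6, 6.01 to 14.6) overlapped each other. Keap1 (4.72, 2.97 to 6.16 CPM per kb) and Gclm (1.51, 0.950 to 1.94) were lower on average, and their ranges met no gene ranked below them. The range of Keap1 met that of Srxn1, ranked above it. Nqo1, a quinone reductase often used as a readout of NRF2, was the exception with almost no reads. It had 1 and 0 counts in CD11b KO, 4, 0 and 0 in CD11b WT, 10 and 0 in CD8 KO, and no count in the 3 CD8 WT libraries, 15 counts in all. In the 7 libraries without a count, 0 counts allow a level of up to 0.226 to 0.324 CPM (3 counts, counting error only), and no fold was computed.

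**Figure D1:**
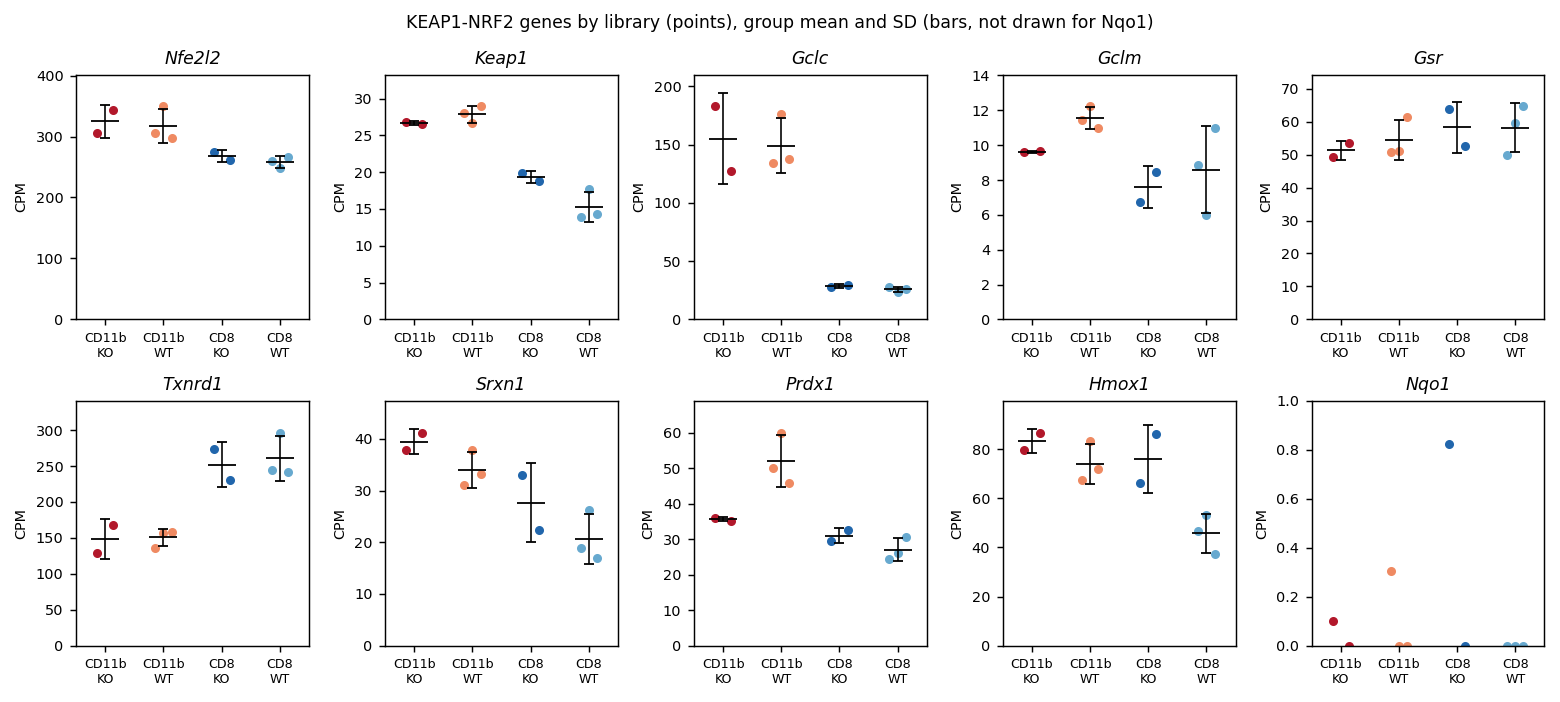
Level of the 10 genes in CPM (linear axes from 0, a scale per gene), with 1 point per library and bars for the group mean and SD (n = 2 KO and 3 WT at each label). Gclc and Txnrd1 separate by subset label, Hmox1 is at 66.4 and 86.0 CPM in CD8 KO against 37.4 to 53.1 CPM in CD8 WT, and Nqo1 stays under 1 CPM.

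None of the 9 tested genes was called in KO against WT at either label by edgeR at an adjusted p under 0.05 (0 of 9 each). Over all 14528 genes tested, 0.145% were called at the label CD11b and 0.145% at the label CD8. The gene nearest the threshold was Hmox1 at the label CD8, 1.66-fold higher in KO, and it was called there by DESeq2 and by limma-voom (1 of 9 by each tool). These tools also called more of the 14528 genes there than edgeR did, with 32 higher and 22 lower by DESeq2 and 29 and 34 by limma-voom. At the label CD11b both tools called 0 of 9. At an unadjusted p under 0.05, 1 of the 9 passed at the label CD11b (Prdx1) and 1 at the label CD8 (Hmox1), where 6.42% and 6.52% of all genes did. The median log2 fold change of the 9 genes was -0.02 at the label CD11b, with 4 of 9 positive, and 0.16 at the label CD8, with 7 of 9 positive. The median over all genes was -0.01 at the label CD11b and 0.00 at the label CD8.

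The regulators come first. Nfe2l2 (ENSMUSG00000015839, chromosome 2, 75675513 to 75704641, minus strand), which encodes NRF2, was at 306 and 344 CPM in CD11b KO, against 306, 349 and 297 CPM in CD11b WT. In CD8 libraries it was at 275 and 261 CPM in KO, against 260.3, 248 and 266 CPM in WT. KO and WT libraries overlapped at both labels. Its log2 fold change was 0.03 ± 0.10 (SE; 95% interval -0.18 to 0.24; edgeR adjusted p = 0.988) at the label CD11b and 0.05 ± 0.10 (-0.16 to 0.27; edgeR adjusted p = 0.998) at the label CD8. NRF2 is mainly set by protein turnover, and its transcript had the smallest SE of the 9 tested genes.

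Keap1 (ENSMUSG00000003308, chromosome 9, 21229730 to 21239361, minus strand), the substrate adaptor that hands NRF2 to CUL3, was at 26.8 and 26.5 CPM in CD11b KO, against 28.1, 26.6 and 28.9 CPM in CD11b WT. Among CD8 libraries it was at 19.9 and 18.8 CPM in KO, against 13.9, 17.7 and 14.3 CPM in WT. The groups overlapped at the label CD11b, and at the label CD8 both KO libraries lay above the 3 WT libraries. The log2 fold change was -0.06 ± 0.21 at the label CD11b (edgeR adjusted p = 0.988) and 0.34 ± 0.21 at the label CD8 (95% interval -0.09 to 0.77; edgeR adjusted p = 0.866). Sqstm1, which encodes p62 and is itself an NRF2 target, was at 559 and 545 CPM in CD11b KO, against 526, 620.1 and 569 CPM in CD11b WT. Sqstm1 at the label CD8 was at 388 and 408 CPM in KO, against 388, 377 and 318 CPM in WT. Its log2 fold change was -0.05 ± 0.10 at the label CD11b (95% interval -0.26 to 0.16) and 0.14 ± 0.10 at the label CD8 (-0.07 to 0.35), with edgeR adjusted p of 0.974 and 0.912.

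The glutathione enzymes showed no call in either direction. Gclc (ENSMUSG00000032350, chromosome 9, 77754535 to 77794485, plus strand), the catalytic subunit of glutamate-cysteine ligase, was at 183 and 128 CPM in CD11b KO, against 134, 176 and 137 CPM in CD11b WT. In CD8 libraries Gclc was at 27.6 and 29.7 CPM in KO, against 27.7, 23.4 and 26.0 CPM in WT. The groups overlapped at both labels, with log2 fold changes of 0.06 ± 0.15 (edgeR adjusted p = 0.981) at the label CD11b and 0.16 ± 0.17 (edgeR adjusted p = 0.972) at the label CD8. Gclm (ENSMUSG00000028124, chromosome 3, 122245557 to 122270732, plus strand), its modifier subunit, was at 9.59 and 9.67 CPM in CD11b KO, against 11.5, 12.2 and 11.0 CPM in CD11b WT. Gclm at the label CD8 was at 6.75 and 8.45 CPM in KO, against 8.86, 5.98 and 11.0 CPM in WT. Both KO libraries lay below the 3 WT libraries at the label CD11b, and the groups overlapped at the label CD8. The log2 fold changes were -0.26 ± 0.33 (95% interval -0.94 to 0.41; edgeR adjusted p = 0.943) at the label CD11b and -0.18 ± 0.33 (-0.87 to 0.51; edgeR adjusted p = 0.998) at the label CD8. Gsr (ENSMUSG00000031584, chromosome 8, 33652523 to 33698163, plus strand), the reductase that regenerates glutathione, was at 49.3 and 53.4 CPM in CD11b KO, against 51.0, 51.2 and 61.6 CPM in CD11b WT. Gsr at the label CD8 was at 63.7 and 52.8 CPM in KO, against 50.0, 59.7 and 64.6 CPM in WT. Its groups overlapped at both labels, with log2 fold changes of -0.09 ± 0.16 (edgeR adjusted p = 0.961) at the label CD11b and 0.00 ± 0.15 (edgeR adjusted p = 1) at the label CD8. Gclm carries a same-strand pseudogene, Gm6061, within its bounds. Same-strand genes also overlap Nfe2l2 (Gm24996), Gsr (Gm24727) and Txnrd1 (Eid3). The effect of these overlaps on the counts was not tested.

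In the thioredoxin arm, Txnrd1 (ENSMUSG00000020250, chromosome 10, 82833951 to 82897712, plus strand), the reductase that recharges thioredoxin, was at 129 and 168 CPM in CD11b KO, against 136, 158 and 158 CPM in CD11b WT. At the label CD8 it was at 274 and 229.9 CPM in KO, against 244, 296 and 242 CPM in WT. The groups overlapped at both labels, with log2 fold changes of -0.02 ± 0.13 (95% interval -0.29 to 0.25; edgeR adjusted p = 0.994) at the label CD11b and -0.05 ± 0.13 (-0.32 to 0.22; edgeR adjusted p = 1) at the label CD8. Srxn1 (ENSMUSG00000032802, chromosome 2, 152105516 to 152111376, plus strand), sulfiredoxin, which repairs overoxidised peroxiredoxins, was at 37.7 and 41.2 CPM in CD11b KO, against 31.0, 37.9 and 33.2 CPM in CD11b WT. Srxn1 at the label CD8 was at 33.0 and 22.3 CPM in KO, against 18.8, 26.2 and 16.9 CPM in WT. KO means were above WT means at both labels, but 1 WT library overlapped the KO libraries each time. The log2 fold changes were 0.21 ± 0.21 (95% interval -0.23 to 0.65; edgeR adjusted p = 0.921) at the label CD11b and 0.42 ± 0.22 (-0.03 to 0.87; edgeR adjusted p = 0.787) at the label CD8. Leaving out CD8 KO 1 or CD8 KO 2 took the value at the label CD8 across 0.11 to 0.68.

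Prdx1 (ENSMUSG00000028691, chromosome 4, 116685544 to 116700822, plus strand), a peroxiredoxin that reduces hydrogen peroxide, was at 36.0 and 35.3 CPM in CD11b KO, against 50.2, 60.0 and 46.0 CPM in CD11b WT. Both KO libraries lay below the 3 WT libraries, with means of 35.6 ± 0.551 CPM (SD, n = 2) in KO and 52.1 ± 7.24 CPM (SD, n = 3) in WT. The log2 fold change was -0.55 ± 0.18 (95% interval -0.91 to -0.18; edgeR adjusted p = 0.544), so the difference was not called. At the label CD8 Prdx1 was at 29.7 and 32.5 CPM in KO, against 24.5, 26.2 and 30.7 CPM in WT. Here the groups overlapped and the log2 fold change was 0.20 ± 0.18 (95% interval -0.17 to 0.56; edgeR adjusted p = 0.959). Genes whose KO and WT libraries did not overlap made up 20.5% of all genes at the label CD11b and 24% at the label CD8, and among the 9 genes there were 2 at each label, a share close to that background. They were Gclm and Prdx1, lower at CD11b, where 10.1% of all genes lay wholly lower, and Keap1 and Hmox1, higher at CD8, where 12.1% lay wholly higher.

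Hmox1 (ENSMUSG00000005413, chromosome 8, 75093621 to 75100589, plus strand) encodes haem oxygenase-1, which opens the haem ring to give biliverdin, iron and carbon monoxide. It is induced by NRF2 and held down by the repressor BACH1. At the label CD8 it was at 66.4 and 86.0 CPM in KO, against 46.8, 53.1 and 37.4 CPM in WT. Both KO libraries lay above the 3 WT libraries, with means of 76.2 ± 13.8 CPM (SD, n = 2) in KO and 45.7 ± 7.89 CPM (SD, n = 3) in WT. The fold was 1.66 (95% interval 1.33 to 2.09) and the log2 fold change 0.74 ± 0.16 (SE; edgeR adjusted p = 0.0647), just short of a call. DESeq2 gave an adjusted p of 0.0166 and limma-voom 0.0225, and edgeR on the 5 CD8 libraries alone gave 0.0261. Without CD8 KO 2, the library with the highest value, the log2 fold change was 0.54 (edgeR adjusted p = 1, also with CD11b WT 1 left out as well), and without CD8 WT 3, the lowest, it was 0.61 (edgeR adjusted p = 0.336). Without CD8 KO 1 it was 0.91 (edgeR adjusted p = 0.0292), without CD8 WT 2 the adjusted p was 0.04, and without CD11b WT 1 or CD11b WT 2, which enter only through the shared dispersion and the adjustment, it was 0.0493 and 0.0408. Where a single KO library was left at the label CD8, it was assumed to vary like the other groups. At the label CD11b Hmox1 was at 79.8 and 86.7 CPM in KO, against 67.3, 83.1 and 71.7 CPM in WT. The groups overlapped there, with a log2 fold change of 0.17 ± 0.16 (95% interval -0.15 to 0.49; edgeR adjusted p = 0.910).

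Several other measures of the CD8 libraries also separated KO from WT, some higher and some lower in KO. The summed level of 14 markers of splenic red pulp macrophages, cells that recycle red cell haem and express Hmox1, was 461 and 464 CPM in CD8 KO, against 409, 383 and 292 CPM in CD8 WT. None of the 14 was at 0 in all libraries, and the log2 fold change was above 0 for 9 of 14, with a median of 0.33. It was below 0 for the other 5 (Adgre1, Hpgd, Marco, Timd4 and Trf), from -0.20 to -0.02. None of the 14 was called by edgeR, and 4 had an unadjusted p under 0.05 (C1qa, C1qb, C1qc and Vcam1). DESeq2 called 0 of 14 and limma-voom 2 of 14, C1qa and C1qb. Among them the complement gene C1qb was at 42.6 and 48.4 CPM in CD8 KO, against 25.6, 26.3 and 21.5 CPM in CD8 WT, and the adhesion molecule Vcam1 at 58.1 and 56.6 CPM, against 38.3, 38.3 and 37.5 CPM. Spic, the transcription factor that defines these macrophages, overlapped between groups, at 16.8 and 16.4 CPM in CD8 KO and 16.7, 15.9 and 8.52 CPM in CD8 WT. At the label CD11b the macrophage sum was 117 and 135 CPM in KO, against 123, 133 and 97.8 CPM in WT. That was below the CD8 libraries, whereas Hmox1 in WT was higher at the label CD11b (mean 74.0 CPM, against 45.7 CPM at the label CD8). The sum of 10 B cell markers was 826 and 2356 CPM in CD8 KO, against 924, 551 and 363 CPM in CD8 WT, with the highest value in CD8 KO 2. The log2 fold change of these markers was above 0 for 10 of 10, with a median of 1.29, more than that of the macrophage markers. By edgeR 0 of the 10 were called, and 7 had an unadjusted p under 0.05. The sum of 10 monocyte and neutrophil markers was 66.5 and 59.0 CPM in CD8 KO, against 100.4, 74.2 and 82.0 CPM in CD8 WT. The sum of 8 plasmacytoid dendritic cell markers was 115 and 151 CPM in CD8 KO, against 105, 99.3 and 109 CPM in CD8 WT. Of these 8, Cox6a2, a subunit of cytochrome c oxidase, was called higher in CD8 KO, at 5.93 and 8.88 CPM against 0, 0.815 and 0 CPM in CD8 WT (edgeR adjusted p = 0.0372). The 8 did not move together, with log2 fold changes above 0 for 4 and below 0 for 3 and a median of 0.12. Ly6d had 2.01, Pacsin1 1.24 and Tcf4 0.24, whereas Siglech had -0.996, Ccr9 -0.20 and Bst2 -0.11, and these were not called. At an unadjusted edgeR p under 0.05 there were 3 of the 8, Cox6a2, Ly6d and Pacsin1, all higher in KO. Among markers of type 2 conventional dendritic cells, Irf4 was called higher in CD8 KO (log2 fold change 0.67, edgeR adjusted p = 0.0269). Of these 10 markers, 3 were above 0 and 7 below, with a median of -0.13. Of 10 type 1 markers, 5 were above 0 and 5 below, with a median of -0.05, and 0 were called. Each list had 2 genes at an unadjusted edgeR p under 0.05. They were Irf4 and, all lower in KO, Clec4a4, Naaa and Tlr3. The libraries also differed as a whole. Genes with a count numbered 19420 and 19365 in CD8 KO, against 17559, 17396 and 18260 in CD8 WT. Reads without a gene on the strand counted were 38.5% and 37.5% in CD8 KO, against 41.4%, 40.7% and 39.1% in CD8 WT, and unmapped reads 1.499% and 1.54%, against 1.37%, 1.36% and 1.46%. Reads that mapped to several places were 21.7% and 21.9% in CD8 KO, against 24.5%, 23.6% and 23.8% in CD8 WT. The part of these measures in the Hmox1 difference was not tested. In sorted bulk samples, more cells of a type and more RNA per cell cannot be told apart.

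**Figure D2:**
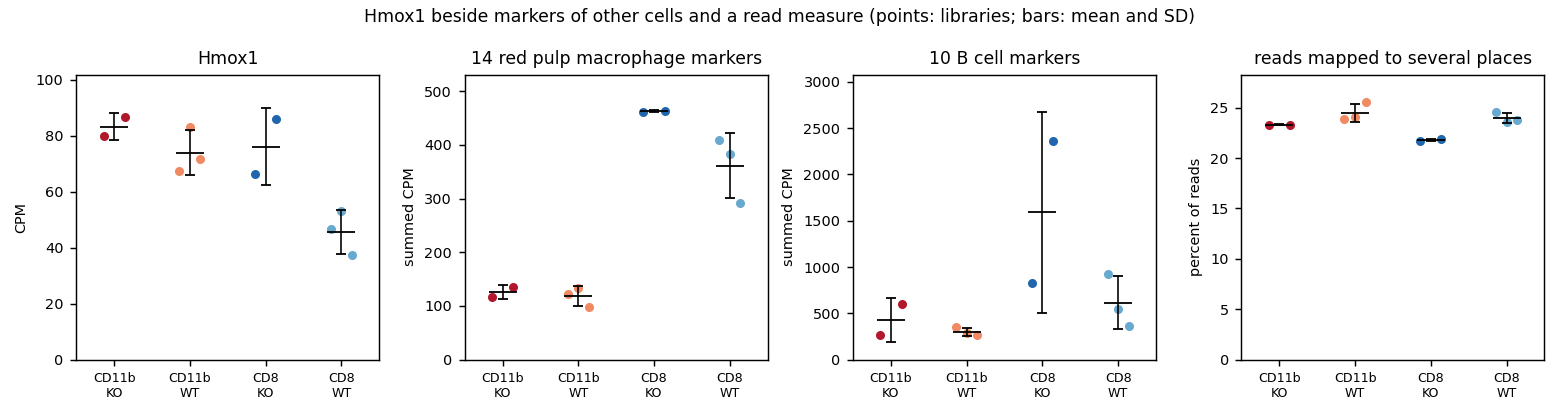
Hmox1 (CPM), the summed CPM of red pulp macrophage and of B cell markers, and the percentage of reads mapped to several places, with 1 point per library and bars for the group mean and SD. At the label CD8 both KO libraries lie above WT for Hmox1 and for the macrophage sum (461 and 464 against 292 to 409 CPM) and below WT for the read measure, while the B cell sum overlaps.

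Averaged over both labels, which uses all 10 libraries and shares them with the comparisons above, the KO effect was called for 0 of 9 genes by edgeR (0.289% of all genes were called), for 1 by DESeq2 (Hmox1) and for 0 by limma-voom. Over all genes DESeq2 called 40 higher and 51 lower for this mean effect, and limma-voom 19 and 24. At an unadjusted edgeR p under 0.05 there were 2 of the 9 genes, Hmox1 and Srxn1, where 8.43% of all genes passed. Hmox1 had a mean log2 effect of 0.45 ± 0.11 (95% interval 0.22 to 0.68; edgeR adjusted p = 0.0976) and was called without CD11b WT 2 (edgeR adjusted p = 0.047). Srxn1 had 0.32 ± 0.15 (95% interval 0.00 to 0.63; edgeR adjusted p = 0.590). For the remaining genes the intervals below bound the mean of the effects at both labels, and not the effect at either label. For Nfe2l2 the 95% interval of the mean effect was -0.10 to 0.19, for Txnrd1 -0.22 to 0.15, for Gsr -0.27 to 0.19 and for Gclc -0.13 to 0.34. It was wider for Keap1 (-0.17 to 0.44), Prdx1 (-0.43 to 0.08) and Gclm (-0.70 to 0.26). The log2 fold change of Prdx1 at the label CD11b, -0.55, lay outside its interval for the mean effect.

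**Figure D3:**
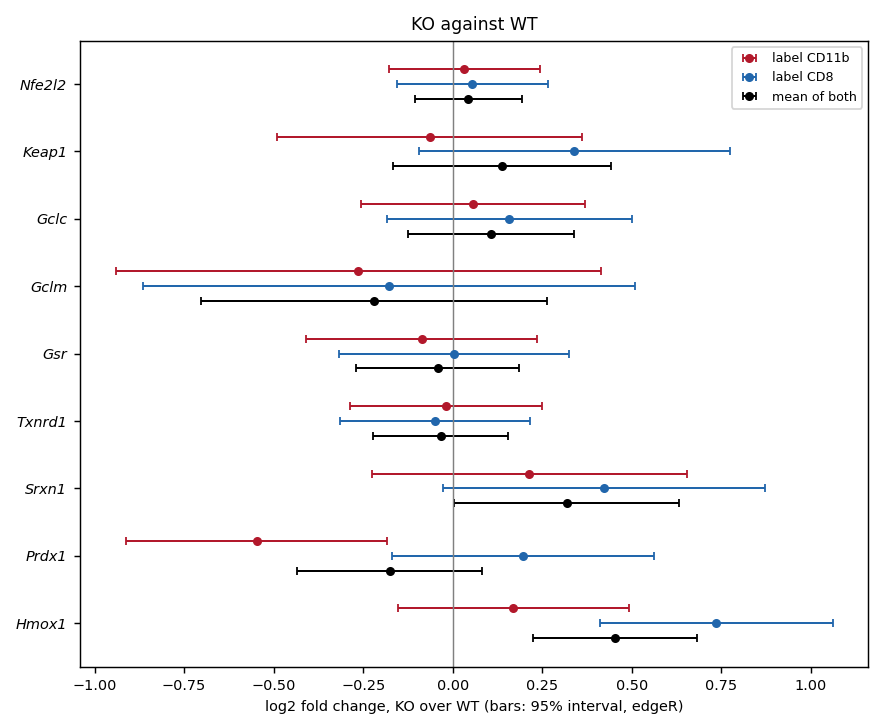
Log2 fold change of KO over WT for the 9 tested genes at each label and averaged over both, with bars for the 95% interval from edgeR. Intervals span 0 except for Prdx1 at CD11b, Hmox1 at CD8 and for the mean effects of Srxn1 and Hmox1, and none of these was called after adjustment over all genes.

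Whether the KO effect differed between the labels was tested as the difference of the effects at CD11b and at CD8. No member was called by edgeR, DESeq2 or limma-voom (0 of 9 by each, against 0.0206% of all genes by edgeR), and 2 of 9 had an unadjusted p under 0.05, as did 5.46% of all genes. Prdx1 had a difference of -0.74 ± 0.25 on the log2 scale (95% interval -1.26 to -0.23; edgeR adjusted p = 0.829). Hmox1 had -0.57 ± 0.22 (95% interval -1.03 to -0.10; edgeR adjusted p = 0.866). Values of the other 7 ran between -0.40 for Keap1 and 0.03 for Txnrd1.

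Genes around the list were read in 8 further lists of 93 genes, of which 84 were tested. KO against WT called 0 of 84 at the label CD11b and 0 of 84 at the label CD8 by edgeR, by DESeq2 and by limma-voom, with 6 and 5 at an unadjusted edgeR p under 0.05, near the 6.42% and 6.52% of all genes. Among 12 genes of the KEAP1 ligase and p62 arm the median log2 fold change was -0.06 at the label CD11b and -0.01 at the label CD8. Map1lc3b, which encodes the LC3B that marks autophagosomes, had 0.41 at the label CD11b (edgeR adjusted p = 0.800) and -0.05 at the label CD8 (edgeR adjusted p = 1). Among 23 tested of 30 other NRF2 targets the medians were -0.02 and 0.18. Slc7a11, the cystine transporter that feeds glutathione synthesis, was at 8.17 and 4.33 CPM in CD11b KO, against 2.05, 4.98 and 4.09 CPM in CD11b WT (log2 fold change 0.74, edgeR adjusted p = 0.721), and had 0.20 at the label CD8 (edgeR adjusted p = 0.990). Osgin1, an oxidative stress growth inhibitor, was at 18.3 and 15.6 CPM in CD8 KO, against 13.4, 10.4 and 8.99 CPM in CD8 WT (0.63, edgeR adjusted p = 0.701). The direction was the other at the label CD11b, where both KO libraries of Osgin1 lay below WT, at 7.97 and 8.92 CPM against 10.3, 12.1 and 10.4 CPM (-0.37, edgeR adjusted p = 0.889). Blvrb, a biliverdin reductase, was at 5.52 and 18.6 CPM in CD8 KO, against 8.32, 6.70 and 1.99 CPM in CD8 WT, with overlap (1.09, edgeR adjusted p = 0.760), and had -0.13 at the label CD11b (edgeR adjusted p = 0.991).

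The 9 tested glutathione enzymes outside the NRF2 target list had medians of -0.20 at the label CD11b and 0.09 at the label CD8. The 9 other thioredoxin and peroxiredoxin genes had medians of -0.08 and -0.09. Among them Prdx6, a peroxiredoxin that also acts on phospholipids, was at 67.2 and 56.2 CPM in CD11b KO, against 72.8, 91.6 and 73.9 CPM in CD11b WT. Prdx6 at the label CD8 was at 179 and 159.7 CPM in KO, against 209, 206 and 198 CPM in WT. Both KO libraries lay below WT at each label, with log2 fold changes of -0.37 (edgeR adjusted p = 0.606) and -0.27 (edgeR adjusted p = 0.729) and a mean effect of -0.32 (edgeR adjusted p = 0.179). The 6 NADPH oxidase subunits, which make superoxide in phagocytes, had medians of -0.08 at the label CD11b and 0.02 at the label CD8, the 4 superoxide and peroxide enzymes -0.03 and -0.08, and the 9 tested haem and iron genes 0.11 at both labels. Cyba, the p22phox subunit, was at 131 and 126 CPM in CD11b KO, against 150.3, 181 and 166 CPM in CD11b WT (log2 fold change -0.37, edgeR adjusted p = 0.393), and had -0.08 at the label CD8 (edgeR adjusted p = 0.990). Slc40a1, the iron exporter ferroportin, was at 8.38 and 13.6 CPM in CD11b KO, against 3.11, 5.28 and 8.56 CPM in CD11b WT, with overlap (0.97, edgeR adjusted p = 0.562), and had 0.33 at the label CD8 (edgeR adjusted p = 0.962). The 12 NRF2 partners and competitors, which include the small MAF proteins and BACH1, had medians of 0.09 and 0.03.

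**Figure D4:**
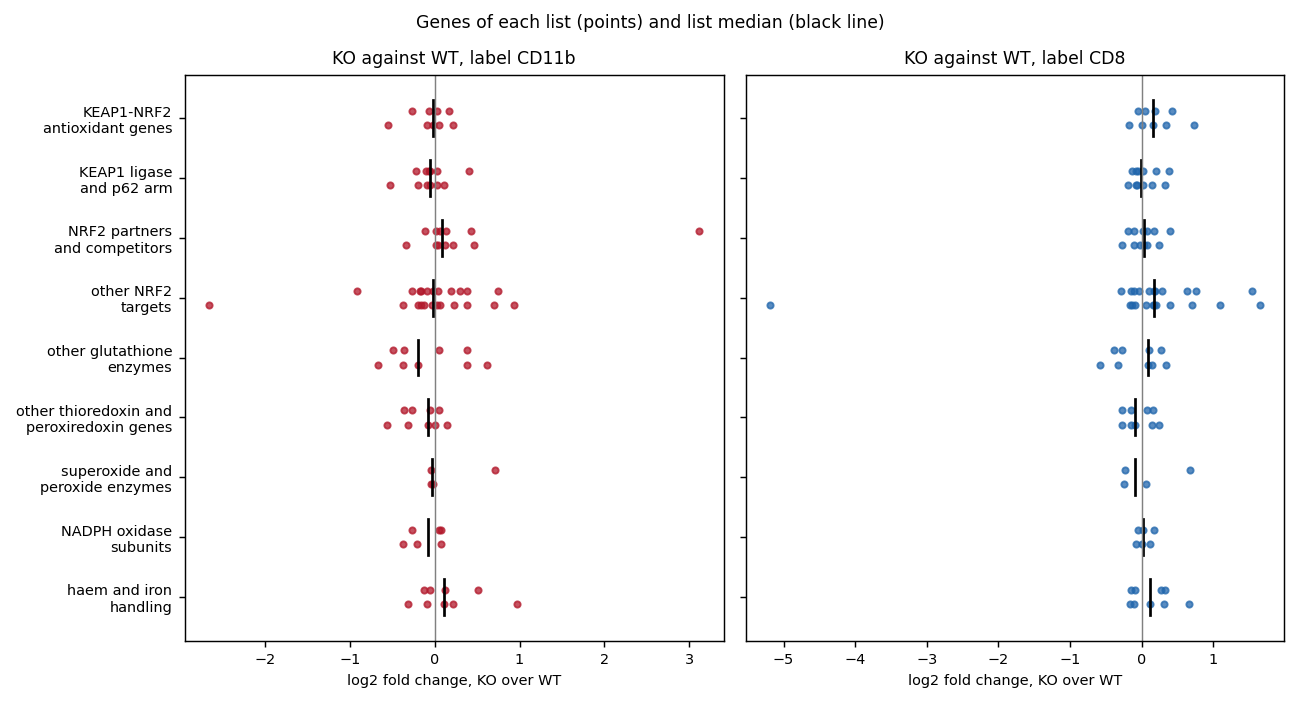
Log2 fold change of KO over WT for the tested genes of each list, 1 point per gene, with a black line at the list median; the panels differ in horizontal scale. List medians lie between -0.20 and 0.18, and the far points are Nfe2 at the label CD11b and Pir at both labels, genes with 213 and 103 counts over the 10 libraries and with groups at 0, so that their fitted values are no bounds.

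Most of the tested genes differed by subset label in WT, and fewer were called in KO. In KO, with 2 libraries at each label, 2 of the 9 tested genes were called by edgeR, against 22.8% of all genes, with 1 higher (10.3% of all genes) and 1 lower (12.5%). DESeq2 and limma-voom each called 3 of 9 in KO, Nfe2l2 in addition. Over all 14528 genes in KO, DESeq2 called 1616 higher and 1914 lower, and limma-voom 1599 and 1770. In WT, with 3 libraries at each label, 7 of 9 were called, against 29.5% of all genes. Of these, 6 were higher at CD11b, as 13.8% of all genes were, and 1 was lower, as 15.7% were. DESeq2 and limma-voom also called 7 of 9 in WT, where over all 14528 genes DESeq2 called 2110 higher and 2436 lower, and limma-voom 2044 and 2325. The median log2 fold change of CD11b over CD8 was 0.28 in KO and 0.69 in WT, against -0.01 and 0.00 over all genes. The gap between labels in KO and in WT differed by the differences of effects given above, of which none was called.

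Gclc carried the widest gap. Its mean was 155 ± 38.9 CPM in CD11b KO (SD, n = 2), against 28.6 ± 1.49 CPM in CD8 KO (SD, n = 2), a 5.41-fold higher level (log2 fold change 2.44 ± 0.18, edgeR adjusted p = 2.53e-10). In WT it was 149 ± 23.4 CPM at the label CD11b (SD, n = 3), against 25.7 ± 2.12 CPM at the label CD8 (SD, n = 3), 5.80-fold higher (2.54 ± 0.15, 95% interval of the fold 4.69 to 7.18, edgeR adjusted p = 2.77e-12). All 5 libraries labelled CD11b were above all 5 labelled CD8. Gclm, its partner subunit in the same enzyme, had log2 fold changes of 0.34 ± 0.36 in KO (edgeR adjusted p = 0.589) and 0.43 ± 0.29 in WT (edgeR adjusted p = 0.313) and was not called. Gsr was not called either, with -0.18 ± 0.17 in KO (edgeR adjusted p = 0.528) and -0.09 ± 0.14 in WT (edgeR adjusted p = 0.690).

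Txnrd1 ran the other way. It fell to 149 ± 27.6 CPM in CD11b KO, against 252 ± 31.0 CPM in CD8 KO (SD, n = 2 each), and to 151 ± 12.3 CPM in CD11b WT, against 261 ± 30.9 CPM in CD8 WT (SD, n = 3 each). The log2 fold changes were -0.76 ± 0.14 in KO (edgeR adjusted p = 0.000233) and -0.79 ± 0.12 in WT (edgeR adjusted p = 7.96e-06), with no overlap between the labels. Prdx1 was at 35.6 ± 0.551 CPM in CD11b KO, against 31.1 ± 2.01 CPM in CD8 KO (SD, n = 2 each; log2 fold change 0.20 ± 0.19, edgeR adjusted p = 0.551). It was higher at the label CD11b in WT, at 52.1 ± 7.24 CPM against 27.1 ± 3.18 CPM at the label CD8 (SD, n = 3 each; 0.94 ± 0.16, edgeR adjusted p = 4.88e-05). Srxn1 had 0.51 ± 0.24 in KO (edgeR adjusted p = 0.133) and rose by 0.72 ± 0.20 in WT (edgeR adjusted p = 0.00632).

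Keap1 had a log2 fold change of 0.46 ± 0.23 between the labels in KO (edgeR adjusted p = 0.167) and was called higher at CD11b in WT (0.86 ± 0.19, edgeR adjusted p = 0.000895). Hmox1 had 0.13 ± 0.17 in KO (edgeR adjusted p = 0.684) and was called higher at CD11b in WT (0.69 ± 0.14, edgeR adjusted p = 0.000501). Nfe2l2 had 0.28 ± 0.11 in KO (edgeR adjusted p = 0.0801) and the smallest called difference in WT, 0.30 ± 0.09 (edgeR adjusted p = 0.0145). Its call in WT was lost without CD11b WT 2 (edgeR adjusted p = 0.0894) or CD8 WT 2 (edgeR adjusted p = 0.0511). Sqstm1 was higher at the label CD11b by 0.47 ± 0.11 in KO (edgeR adjusted p = 0.00252) and by 0.66 ± 0.09 in WT (edgeR adjusted p = 3.23e-06).

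**Figure D5:**
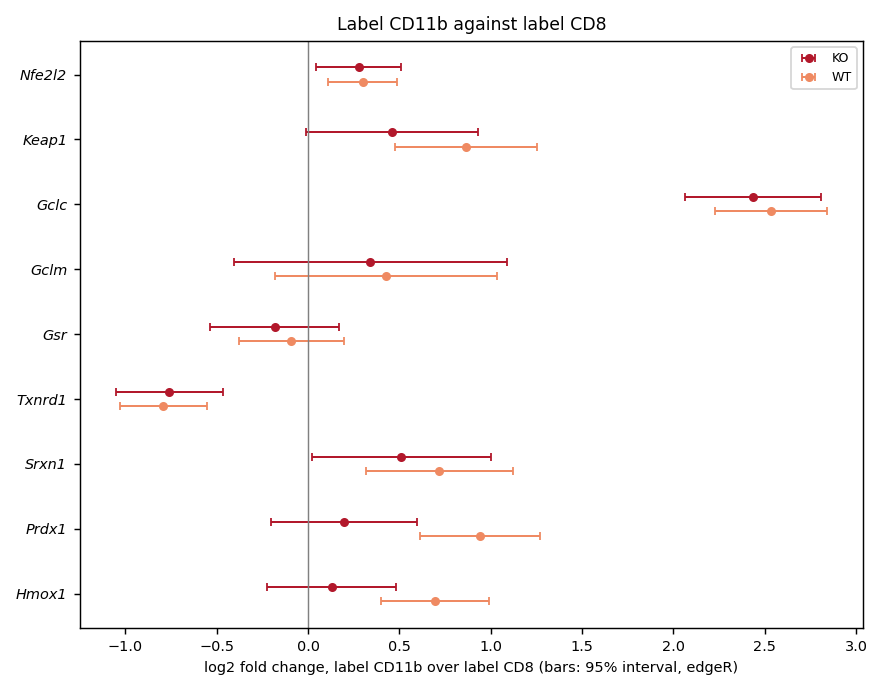
Log2 fold change of the label CD11b over the label CD8 for the 9 tested genes, in KO and in WT, with bars for the 95% interval from edgeR. Gclc lies at 2.44 in KO and 2.54 in WT and Txnrd1 at -0.76 and -0.79, and Prdx1 and Hmox1 have lower values in KO (0.20 and 0.13) than in WT (0.94 and 0.69).

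Genes of the other lists also differed by label, with 38 of 84 genes called in KO (15 higher, 23 lower), against 22.8% of all genes (10.3% higher, 12.5% lower). In WT 46 of 84 were called (22 higher, 24 lower), against 29.5% of all genes (13.8% higher, 15.7% lower). Of the 6 NADPH oxidase subunits, 4 were lower at the label CD11b in WT, where 15.7% of all genes were, and none higher. Cybb, the catalytic subunit, had log2 fold changes of -3.26 in KO (edgeR adjusted p = 3.34e-13) and -3.05 in WT (edgeR adjusted p = 1.16e-14). Of 23 other NRF2 targets tested, 5 were higher and 3 lower in WT, which is close to the 29.5% of all genes called. In KO 4 of the 23 were higher and 6 lower, a larger share than the 22.8% of all genes called there. Slc7a11 was lower at the label CD11b, with -2.75 in KO (edgeR adjusted p = 5.74e-07) and -3.29 in WT (edgeR adjusted p = 1.46e-09), where Gclc, of the first enzyme of glutathione synthesis, was higher. Txn1, the thioredoxin that Txnrd1 recharges, was higher by 1.66 in KO (edgeR adjusted p = 3.48e-06) and 2.11 in WT (edgeR adjusted p = 3.04e-09), opposite to Txnrd1. Fth1, the ferritin heavy chain, was lower, with -1.62 in KO (edgeR adjusted p = 1.78e-11) and -1.57 in WT (edgeR adjusted p = 3.75e-13).

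Across the 10 libraries, the genes whose log2 CPM ran most like Gclc were Laptm4b (Pearson r = 0.996), Bcl2l14 (0.996) and Npc2 (0.995), and those most like Txnrd1 were Samhd1 and Dram2 (0.990 each) and Fem1c (0.985), out of 12069 genes ranked. For Hmox1 they were Tbl3 (0.965), Wbp1 (0.954) and Chpf2 (0.926). The libraries split by subset label for Gclc and Txnrd1 in both genotypes and for Hmox1 in WT only, and the values are a description without a test.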

How the data were processed

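RNA from sorted spleen dendritic cells of individual mice was made into strand-specific libraries with a low-input kit, per the labels' protocols. The authors deposited unnormalised counts for each gene, made with STAR 2.5.0a on GRCm38, per the submitters' processing notes, and the annotation release, trimming and duplicate handling are not given in the sources used here. The strand column used held 13.49 to 17.71 times the counts of the opposite strand. Reads that mapped to several places (21.73% to 25.53%) were not counted.

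Symbols, positions and exon lengths came from GENCODE M21 (53274 of 53379 identifiers found). CPM used TMM-scaled library sizes. The filterByExpr function of edgeR 4.0.16, applied by group, left 14528 genes. One quasi-likelihood fit over the 10 libraries gave a mean for each of the 4 groups, with a common dispersion of 0.0862 and with 6 residual and 16.1 prior degrees of freedom. P-values were adjusted by Benjamini-Hochberg over all genes in a comparison and called under 0.05. The standard error is the log2 fold change divided by the root of F. Alternatives were other size factors (RLE, upper quartile), no filter, a minimum of 1 CPM in 3 libraries, counts without regard to strand, leaving out genes of mitochondrial and ribosomal RNA, the DESeq2 1.42.0 Wald test, quality-weighted limma-voom (limma 3.58.1), leaving out each library, CD11b WT 1 and CD8 KO 2 left out together (they stood apart in earlier results), the compared groups alone, and replicate blocks. R 4.3.3 and Python 3.11.15 were used, and the model was tested on simulated data. The members and lists were chosen with earlier results of these data known. All 10 members were named, with Atg16l1, Sqstm1 and, from a described list, up to 4 genes with the smallest p. With groups of 2 or 3 libraries, the intervals rest on a spread between libraries that the fit shares across groups and genes. Intervals of counts cover counting error only.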

Additional observations from a re-analysis of the deposited data

How the results depend on the processing

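Over the alternatives, 954 values of the members kept their direction and their side of the threshold. For KO against WT at the label CD8, the number of members called changed to 1 (Hmox1) with no filter on low counts, with DESeq2, with limma-voom and with the libraries of the 2 groups only, and was 0 to 1 when single libraries were left out. For the mean KO effect it was 1 (Hmox1) with no filter and with DESeq2, and 0 to 1 with single libraries left out. With no filter the edgeR adjusted p of Hmox1 was 0.000699 at CD8 and 0.00825 for the mean. No other count of called members moved by over 1.5 times. Signs turned only among members and Sqstm1 where no call was made, and the cause was not tested. Atg16l1 at CD11b missed the threshold with limma-voom (adjusted p = 0.0654). Without CD11b WT 1 and CD8 KO 2 together, log2 fold changes were -0.00722 for Gclc at CD11b, 0.00635 for the mean effect on Gsr and 0.0764 for Txnrd1 at CD8. Gsr at CD8 was -0.000606 with upper quartile factors and -0.00245 with unstranded counts. With 1 library left out, the values ran from -0.225 to 0.293 (Gclc, CD11b), -0.0339 to 0.225 (Gclc, mean), -0.381 to 0.0387 (Gclm, CD8), -0.147 to 0.00741 (Gsr, CD11b), -0.139 to 0.14 (Gsr, CD8), -0.113 to 0.0278 (Gsr, mean), -0.0532 to 0.113 (Nfe2l2, CD11b), -0.107 to 0.0127 (Sqstm1, CD11b), -0.222 to 0.159 (Txnrd1, CD11b), -0.181 to 0.0764 (Txnrd1, CD8), -0.136 to 0.0548 (Txnrd1, mean) and -0.046 to 0.334 (Hmox1, CD11b over CD8 in KO).

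Same-numbered libraries deviated together only weakly (correlations of 0.02 to 0.05 across labels in 5 pairs and -0.03 to 0.06 across genotypes in 4 pairs). All 5 correlations across labels were positive, and each of 3 CD11b WT libraries correlated best with the CD8 WT library of its number. The numbers were not taken to pair samples, but the check cannot exclude shared mice. In groups of 2 libraries the deviations mirror each other, so the KO pairs hold only 1 value. With a replicate block on the number, 0 members were called in the genotype comparisons, 2 in the subset comparison in KO and 7 in WT, Hmox1 at CD8 was 0.66 (edgeR adjusted p = 0.0531), and Gsr turned to 0.00151 at CD11b and 0.0479 for the mean. A block on genotype and number, the model for shared mice, called more genes for the difference of the KO effects. It called 12 higher and 16 lower, against 0 and 3 in the main fit, with 0 of 9 members called. In the subset comparisons that block called 2 of 9 members in KO and 7 of 9 in WT. Depth limits what can be said of Nqo1, and groups of 2 or 3 libraries limit the width of the other intervals.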
